A study of Mus musculus with 10 samples.

Results

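The 54 genes described here encode proteins of the splicing machinery, and they were chosen by name from the deposited count table of mouse kidney RNA. They comprise 12 SR proteins and Tra2 factors, 11 hnRNPs, 8 tissue splicing regulators, 12 core spliceosome proteins, 7 SR-related and RBM proteins and 4 SR protein kinases. All 54 were found among the 21010 genes of the table, and all 54 were among the 15728 genes with enough counts to be tested. RNA of 5 KM and 5 KMS mice was sequenced, with 1 library for each mouse, and the comparison of KMS with KM addressed how the loss of Setd2 changes gene expression in a kidney that already overexpresses MYC. Mice of both groups were C57BL/6 mice of 20 weeks and carried Ksp1.3/cre together with MYCfl/fl. The KMS mice carried Setd2fl/fl in addition. The Ksp promoter is that of Cdh16, which is active in kidney tubule cells, so that the recombinase acts in these cells and not in the stroma, vessels or immune cells of the same tissue. The sources differ on what was sequenced. It is given as kidney tissue in the methods, as cysts (KM) or neoplastic masses (KMS) in the reporting form, and as primary tubular epithelial cells in the labels. Sex is not given for any library.

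Introns are removed from pre-mRNA by the spliceosome, a machine of small nuclear ribonucleoproteins (snRNPs) that recognize the splice sites and the branch point. SR proteins bind exonic enhancers and promote the use of nearby splice sites, many hnRNPs act against it, and the CLK and SRPK kinases phosphorylate the SR proteins and so control where they are in the nucleus. Setd2 is the enzyme that trimethylates lysine 36 of histone H3 (H3K36me3) over transcribed gene bodies. This mark is read by adaptor proteins that contact splicing factors, among them Morf4l1 with Ptbp1 and Psip1 with Srsf1, and human SETD2 binds HNRNPL directly.

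Setd2 itself was measured at 67.9, 62.6, 73.3, 66.2 and 69.4 CPM, counts scaled to the library size with TMM factors, in the KM libraries (always listed by replicate number, 1 to 5). In the KMS libraries it was measured at 89.0, 36.2, 71.1, 60.4 and 28.2 CPM. Only KMS replicates 2, 4 and 5 lay below every KM library, the library labelled KMS replicate 1 had the highest level of all 10, and the group difference was -0.25 on the log2 scale (SE 0.29, adjusted p = 0.658, edgeR quasi-likelihood test). The counts cover the whole gene and all cells of the sample, and the exons that the recombinase removes were not counted separately, so the level checks the labels only in part. KMS 1 and KMS 3 below therefore mean the libraries so labelled. Myc lay between 3.97 and 8.49 CPM in KM and between 2.75 and 14.4 CPM in KMS, and whether the gene's counts include reads of the transgene is not known. The KM libraries held 10873993 to 14564152 counts and the deeper KMS libraries 16925118 to 25029639. KMS replicate 5 stood apart, with a mean Spearman correlation of 0.851 with the other KMS libraries and a TMM factor of 0.642. The most alike pair was KM 1 with KM 2 (Spearman correlation 0.993). Its counts differed by more than sampling noise, which does not tell whether the libraries came from separate mice, and both were used as labelled.

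None of the 54 splicing genes differed between KMS and KM at an adjusted p under 0.05 and a fold change above 1.5 in either direction. With edgeR's quasi-likelihood test 0 of 54 were called, beside 16 of all 15728 genes (0.102%). DESeq2 called 0 of the 53 members for which it gave a p, beside 1072 of 20472 genes (5.24%), and edgeR's likelihood ratio test and limma-voom also called 0. Before adjustment, 1 member, Snrpb, had p under 0.05 with a higher level in KMS, where 10.8% of all tested genes did. No member had an unadjusted p under 0.05 with a lower level in KMS, where 8.62% of all tested genes did. In no member were all libraries of a group above all libraries of the other group, a pattern seen in 4.79% of all tested genes.

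The log2 fold changes of the members were small and lay on both sides of 0. They ranged from -0.67 in Esrp1 to 1.07 in Snrpb, with a median of 0.02 beside 0.06 over all tested genes. A positive value was found in 30 of 54 members, beside 54% of all tested genes (from 13 members with upper-quartile factors to 40 without KM replicate 5 over the alternatives, with 20 under a Y-linked covariate), and 40 members lay within 0.25 of 0. In 41 members the whole 95% interval lay within a log2 fold change of 1 in either direction, and in the other 13 it reached beyond. The interval excluded 0 in 1 member. Its half-width had a median of 0.60, so that a change of less than about 1.5-fold could not be told from none for most members. This interval is not adjusted for the number of genes, and larger changes could also stay uncalled after adjustment. The counts behind these values were 124 to 14673 reads per member and library. In bulk RNA a difference between groups may come from fewer cells of a type or from less RNA per cell, and these cannot be told apart.

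**Figure D1:**
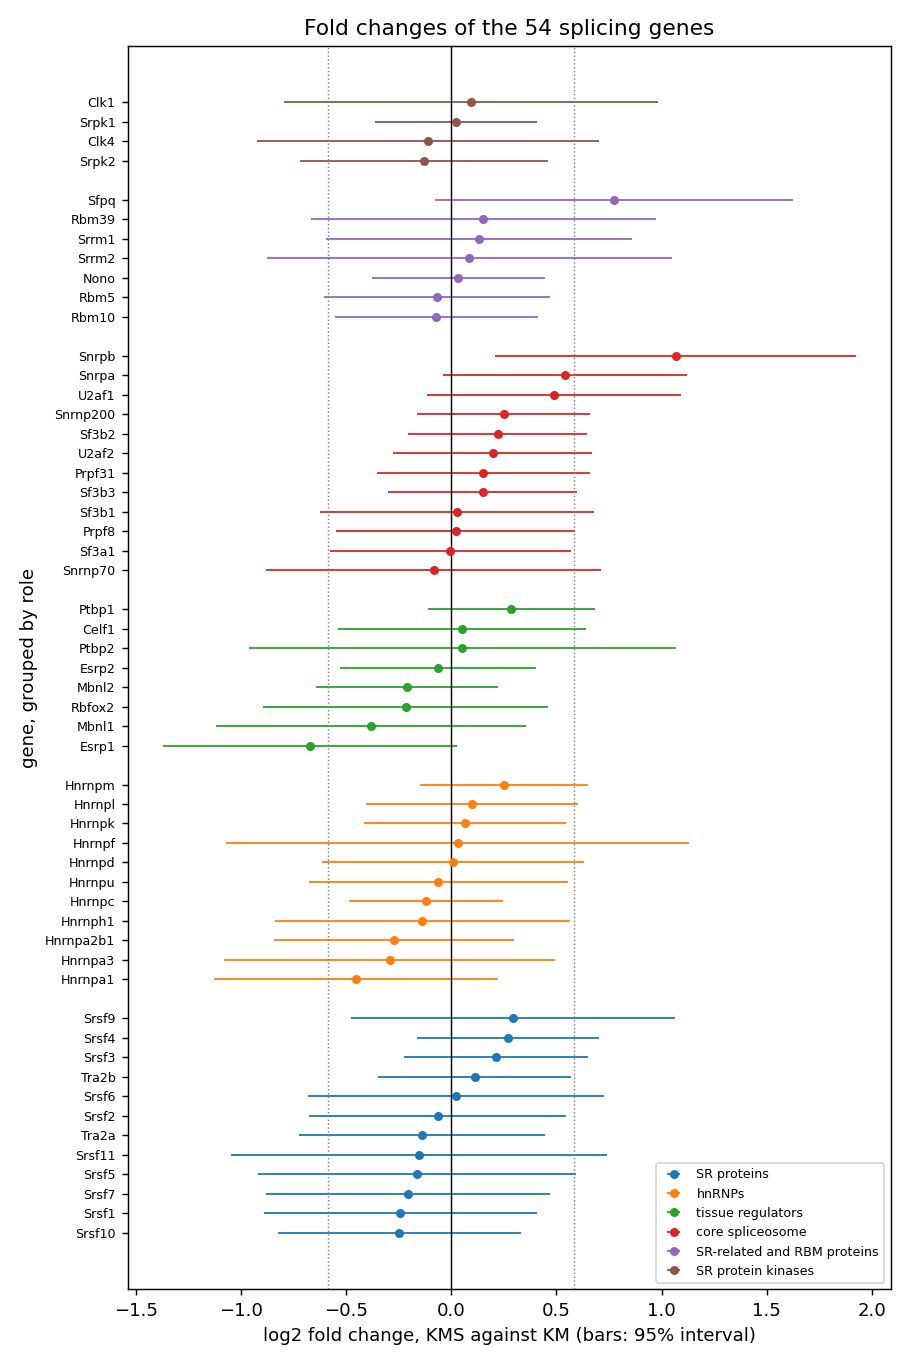
Log2 fold change of each of the 54 splicing genes in KMS against KM (horizontal axis), grouped by role on the vertical axis, with bars for the 95% interval of the edgeR fit and dotted lines at a fold change of 1.5 in either direction. The points lie between -0.67 (Esrp1) and 1.07 (Snrpb), and the bar of Snrpb alone does not cross 0.

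Of the 12 core spliceosome genes 10 had a positive log2 fold change, with a median of 0.18, and Snrpb, which encodes the SmB and SmB' proteins of the Sm ring of the snRNPs, had the largest. Snrpb was measured at 98.1, 104, 82.1, 63.5 and 71.7 CPM in KM. In KMS it was measured at 160, 143, 95.8, 87.2 and 394 CPM. KMS 1, 2 and 5 were above every KM library, KMS 3 and 4 lay within the KM range, and KMS 5 was far above the rest. The log2 fold change was 1.07 (SE 0.39, 95% interval 0.21 to 1.92, adjusted p = 0.198, edgeR). Without KMS replicate 5 it was 0.55 (adjusted p = 0.271, edgeR), and without KMS replicate 1 it was 1.11.

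Human SNRPB is known to regulate its own level through an alternative exon that introduces a stop codon. Mouse Snrpb (chr2:130171414-130179403, minus strand, GRCm38) has such an exon of 124 bases in GENCODE vM21, found only in transcripts annotated as targets of nonsense-mediated decay. The exon lies at chr2:130176629-130176752 on the minus strand, and its first 58 bases, up to the stop codon in reading frame, are shown because the gene-level counts pool transcripts with and without it. The stop codon is in capitals.
Snrpb exon: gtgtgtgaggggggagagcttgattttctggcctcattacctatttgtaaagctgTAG
Of the 54 members 16 had an annotated exon of this kind, 34 had at least 1 transcript annotated for nonsense-mediated decay and 45 had at least 1 with a retained intron. Among the SR proteins 11 of 12 had a transcript annotated for nonsense-mediated decay. The deposited counts are sums over each gene, so no value here bears on how the members themselves were spliced.

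Snrpa, a protein of the U1 snRNP, was the next highest core gene. Its levels were 43.0, 46.4, 53.7, 42.3 and 52.8 CPM in the KM libraries and 65.4, 73.8, 46.9, 43.6 and 117 CPM in the KMS libraries. The same libraries, KMS 1, 2 and 5, were above all KM libraries, and the log2 fold change was 0.54 (95% interval -0.04 to 1.12, adjusted p = 0.280, edgeR). U2af1, the small subunit of the factor that reads the 3′ splice site, was at 22.5 to 27.5 CPM in KM and at 45.1, 28.1, 21.0, 24.9 and 56.6 CPM in KMS. Its log2 fold change was 0.49 (95% interval -0.12 to 1.09, adjusted p = 0.346, edgeR), with KMS 1 and 5 the highest libraries. Snrpa and U2af1 are named outside the rule for named genes, after their values had been seen.

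Of the large proteins at the heart of the spliceosome, Sf3b1 and Prpf8 had log2 fold changes near 0, with intervals that reach beyond 0.5 on either side, and Snrnp200 a higher one. Sf3b1, the U2 snRNP protein that holds the branch point, was measured at 253, 245, 208, 324 and 377 CPM in KM and at 440, 247, 296, 305 and 148 CPM in KMS. KMS replicates 1 and 5 were the highest and the lowest of all 10 libraries, and the log2 fold change was 0.03 (95% interval -0.62 to 0.68, adjusted p = 0.967, edgeR). Prpf8, the scaffold around the catalytic RNA core, averaged 251 ± 36.4 CPM (SD, n = 5) in KM and 254 ± 84.3 CPM (SD, n = 5) in KMS, a log2 difference of 0.02. Snrnp70, the U1-70K protein and the lowest of the core genes in log2 fold change, averaged 218 ± 109 CPM (SD, n = 5) in KM and 206 ± 66.9 CPM (SD, n = 5) in KMS, a log2 difference of -0.08. Snrnp200, the helicase that unwinds U4 from U6, had 0.25 (95% interval -0.16 to 0.66), and its KMS libraries 1 to 4, at 147 to 188 CPM, were all above the KM range of 112 to 137 CPM, while KMS 5 was at 111 CPM. Sf3a1, Sf3b2, Sf3b3, U2af2 and Prpf31 make up the rest of the group, and the log2 fold change of each was within 0.25 of 0.

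**Figure D2:**
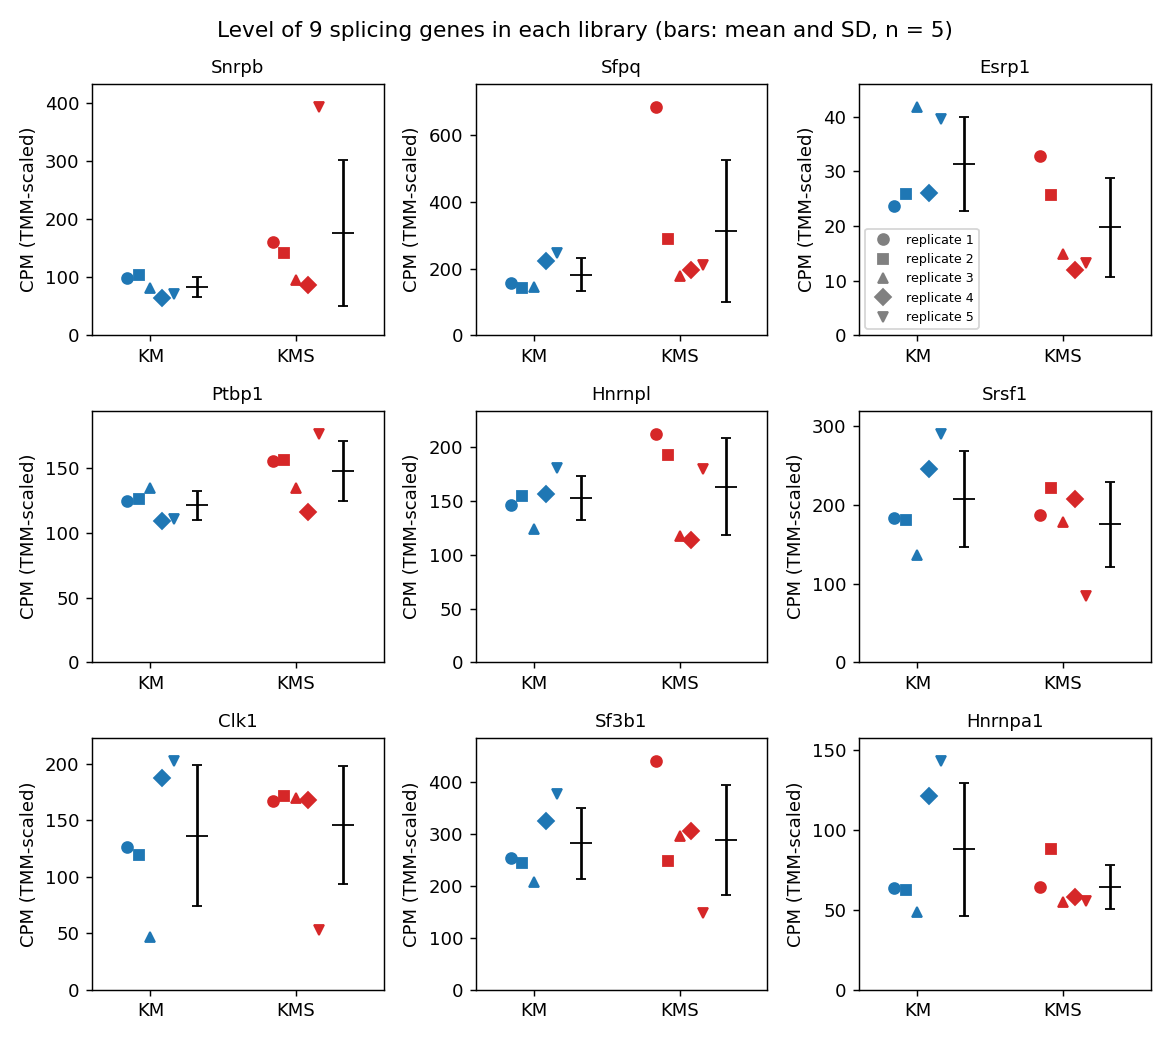
Level of 9 splicing genes in each library, in CPM scaled by TMM factors, with 1 marker for each replicate and bars for mean and SD (n = 5 per group). The KM and KMS libraries overlap in every panel, with KMS 5 at 394 CPM in Snrpb and KMS 1 at 686 CPM in Sfpq standing above the others.

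Among the 7 SR-related and RBM proteins 5 had a positive log2 fold change and the median was 0.09. Sfpq, a DNA- and RNA-binding partner of Nono that is a component of paraspeckles, was measured at 156, 141, 144, 224 and 247 CPM in KM. In KMS it was measured at 686, 288, 179, 194 and 212 CPM. The library labelled KMS 1 had more than any other library and KMS 2 was next, while KMS 3, 4 and 5 lay within the KM range. The log2 fold change was 0.78 (SE 0.39, 95% interval -0.07 to 1.63, adjusted p = 0.291, edgeR), and it was 0.27 without KMS replicate 1. Nono averaged 212 and 217 CPM. Rbm10, which represses the inclusion of many cassette exons, had the lowest value of the group, -0.07, with 33.7 to 42.6 CPM in KM and 22.1 to 49.4 CPM in KMS. Srrm2, a scaffold protein of nuclear speckles, was highly variable, with 283 to 574 CPM in KM and 110 to 627 CPM in KMS and a log2 fold change of 0.09.

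The 12 SR proteins and Tra2 factors had a median log2 fold change of -0.10, with 5 positive and 7 negative values between -0.25 and 0.29. Srsf1, the founding SR protein, was measured at 183, 180, 136, 245 and 290 CPM in KM and at 187, 221, 177, 207 and 83.9 CPM in KMS. All KMS libraries but KMS 5 lay within the KM range, and the log2 fold change was -0.24 (95% interval -0.89 to 0.41, adjusted p = 0.689, edgeR). Srsf10, a splicing repressor when dephosphorylated, had the lowest value of the group, -0.25, with means of 89.5 ± 32.4 and 75.4 ± 15.4 CPM (SD, n = 5). Srsf9 had the highest, 0.29, at 41.0, 39.3, 28.4, 26.2 and 32.9 CPM in KM and 28.7, 47.2, 24.2, 22.6 and 83.1 CPM in KMS. Here 3 of the 5 KMS libraries were lower than the KM mean, and without KMS replicate 5 the value was -0.11. Srsf3, one of the smallest SR proteins, was the steadiest in KMS, at 125 to 152 CPM in all 5 libraries. Tra2b, which binds GAA-rich exonic enhancers and whose own transcript carries an exon with stop codons through which it limits its level, had a log2 fold change of 0.11. This exon lies on the minus strand and starts at chr16:22259261, and its first 81 bases (chr16:22259181-22259261, GRCm38) are shown for the same reason as that of Snrpb, with the stop codon in capitals.
Tra2b exon: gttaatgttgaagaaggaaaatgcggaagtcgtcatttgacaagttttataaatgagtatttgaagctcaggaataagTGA

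The 11 hnRNPs had a median log2 fold change of -0.06, with 5 positive and 6 negative values. Hnrnpl, a CA-repeat binding protein whose human counterpart binds SETD2, was measured at 146, 155, 124, 157 and 181 CPM in KM and at 212, 193, 118, 114 and 180 CPM in KMS. KMS 1 and 2 were above the KM libraries, KMS 3 and 4 below them, and the log2 fold change was 0.10 (95% interval -0.41 to 0.60, adjusted p = 0.854, edgeR). Human HNRNPL also limits its own expression through an exon with a stop codon. In mouse Hnrnpl an annotated exon of 70 bases at chr7:28817335-28817404 (plus strand, GRCm38) is found only in transcripts annotated for nonsense-mediated decay, and its first 59 bases end with the stop codon in capitals.
Hnrnpl exon: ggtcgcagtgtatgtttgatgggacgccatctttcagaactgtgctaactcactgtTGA
Hnrnpa1, which antagonizes SR proteins at many exons, had the lowest value of the group, -0.45 (95% interval -1.13 to 0.22, adjusted p = 0.436, edgeR). It was at 63.2, 62.5, 48.4, 121 and 143 CPM in KM and at 63.9, 88.1, 54.8, 57.9 and 55.6 CPM in KMS. The 2 high libraries were KM 4 and KM 5, KM 1 and KM 2 lay among those of KMS, KM 3 was below all of them, and without KM replicate 5 the log2 fold change was -0.19. Hnrnpm, a nuclear hnRNP that binds GU-rich RNA, had the highest value of the group, 0.25, with means of 134 ± 13.4 and 159 ± 24.2 CPM (SD, n = 5).

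Hnrnpf, which binds runs of guanines, is named for the gap between KMS 5 and the other KMS libraries, after its values had been seen. It was at 30.2, 28.7, 47.2, 39.2 and 26.1 CPM in KM and at 18.8, 21.1, 15.9, 18.2 and 101 CPM in KMS. The first 4 KMS libraries were all below every KM library and KMS 5 was above them all, and the log2 fold change over all 10 libraries was 0.03. Without KMS replicate 5 it was -0.87 (adjusted p = 0.118, edgeR), so that it stayed uncalled. Its annotated exons share 24.8% of their bases with genes on the opposite strand.

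Of the 8 tissue splicing regulators 3 had positive and 5 had negative values, with a median of -0.14. Esrp1, an epithelial splicing regulator that is lost when epithelial cells become mesenchymal, had the lowest log2 fold change of all 54 members. It was measured at 23.6, 25.9, 41.9, 26.1 and 39.6 CPM in KM and at 32.8, 25.7, 14.9, 11.98 and 13.2 CPM in KMS. KMS 3, 4 and 5 were below every KM library and KMS 1 and 2 were within the KM range. The log2 fold change was -0.67 (SE 0.32, 95% interval -1.37 to 0.03, adjusted p = 0.271, edgeR). Its paralogue Esrp2 was at 40.0 to 67.1 CPM in KM and at 39.0 to 61.9 CPM in KMS, with a log2 fold change of -0.06 (95% interval -0.53 to 0.40). The summed level of 5 pan-epithelial markers (Epcam, Cdh1, Krt8, Krt18 and Cldn7) was 749 and 1005 CPM in KMS 1 and 2 but 388, 360 and 744 CPM in KMS 3, 4 and 5, and 528 to 853 CPM in KM. The 5 markers did not go together in KMS 5. There Krt8 was at 484 CPM (109 to 222 CPM in KM), while Krt18 and Cldn7 lay within the KM range. In KMS 3 and 4 Krt18 was at 24.8 and 20.6 CPM (47.7 to 158 CPM in KM). Cldn7 was at 16.0 and 9.40 CPM in KMS 3 and 4 (29.5 to 74.0 CPM in KM), and Krt8 at 92.5 and 111 CPM. Epcam was at 72.7, 53.5 and 60.1 CPM in KMS 3, 4 and 5 (99.6 to 188 CPM in KM). Cdh1 was at 182, 165 and 79.8 CPM in these libraries (179 to 372 CPM in KM). The part of these markers in the level of Esrp1 was not tested.

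Ptbp1, the polypyrimidine tract binding protein that Morf4l1 links to H3K36me3, had the highest value of the regulators. It was measured at 125, 126, 135, 110 and 111 CPM in KM and at 156, 156, 135, 116 and 177 CPM in KMS. KMS 1, 2 and 5 were above every KM library and KMS 3 and 4 were within the KM range, with a log2 fold change of 0.29 (95% interval -0.11 to 0.68, adjusted p = 0.402, edgeR). Ptbp2, its neuronal paralogue, was lower, at 16.8 to 45.4 CPM in KM and 7.73 to 55.7 CPM in KMS, with a log2 fold change of 0.05. Mbnl1 and Mbnl2, which promote adult splice forms in muscle, had -0.38 and -0.21, Rbfox2, which binds GCAUG, had -0.22 and Celf1, an antagonist of the Mbnl proteins in muscle, had 0.05. The interval of each of these 4 included 0.

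The 4 SR protein kinases showed no shared direction over all 10 libraries. Their log2 fold changes were 0.10 in Clk1, 0.02 in Srpk1, -0.11 in Clk4 and -0.13 in Srpk2. Without KMS replicate 5 all 4 were positive, with a median of 0.10. Clk1 was measured at 127, 120, 46.4, 187 and 203 CPM in KM and at 167, 172, 170, 168 and 53.0 CPM in KMS. The first 4 KMS libraries lay within 167 to 172 CPM, and KM 3 and KMS 5 were the low libraries. The log2 fold change of Clk1 had a 95% interval of -0.79 to 0.99 (adjusted p = 0.922, edgeR). Clk4, a paralogue of Clk1, was also lowest in KM 3 and KMS 5, at 21.4 and 20.8 CPM beside 42.0 to 80.1 CPM in the other KM libraries and 48.9 to 64.9 CPM in the other KMS libraries. Srpk1 and Srpk2, the kinases that act on SR proteins in the cytoplasm, lay at 51.9 to 79.2 CPM and at 23.7 to 66.3 CPM over all 10 libraries.

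The level of the members varied between libraries of the same group, with a median coefficient of variation of 24.9% in KM and 29.0% in KMS. Over all tested genes this median was 25.8% in KM and 45.3% in KMS. In each library the median over the 54 members of the log2 CPM minus the KM mean was -0.12, -0.15, -0.31, 0.19 and 0.36 in KM. In KMS this median was 0.31, 0.17, -0.05, -0.02 and -0.48. The same median over all tested genes lay between -0.06 and 0.02 in the 10 libraries. TMM scaling holds that median near 0, so it does not show how other genes varied. Counted in the members only, KM 3 was the lowest library of its group for 30 of 54 and KM 5 the highest for 34. KMS 5 was the lowest of its group for 28 and KMS 1 the highest for 26, with no count over all genes. The SR proteins showed this, with medians of -0.58 in KM 3 and -0.70 in KMS 5 beside 0.33 and 0.60 in KM 4 and KM 5. The kinases showed it too, at -0.74 in KM 3 and -1.12 in KMS 5 beside 0.51 in both KM 4 and KM 5. The core spliceosome genes did not, with medians of 0.08 in KM 3 and 0.27 in KMS 5. The mitochondrial share of counts was 12.9%, 11.6%, 5.13%, 26.7% and 24.3% in KM and 13.7%, 14.6%, 20.4%, 21.1% and 4.26% in KMS. It was lowest in KM 3 and KMS 5 and highest in KM 4 and KM 5. However, KMS 3 and 4, with lower member medians than KMS 1 and 2, had higher shares than these. The part of this share in the levels of the members was not tested.

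**Figure D3:**
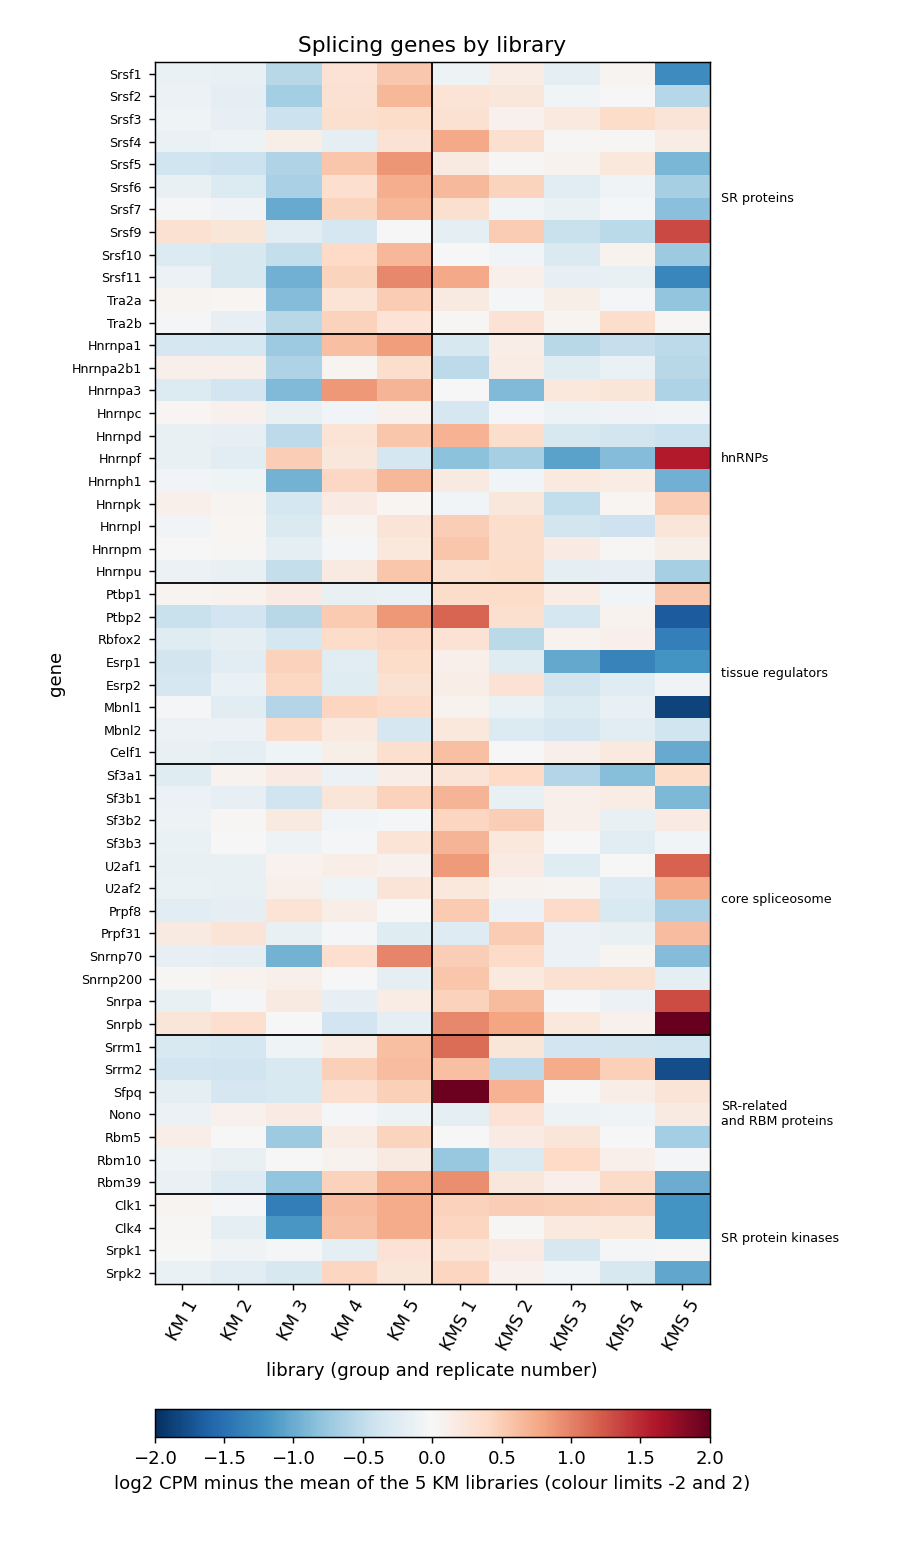
Log2 CPM of each of the 54 splicing genes in each library minus the mean of the 5 KM libraries, with genes as rows grouped by role, libraries as columns and colour limits of -2 and 2. Most SR proteins and both Clk genes are low in KM 3 and KMS 5 and high in KM 5, and no role has a colour shared by all 5 KMS columns.

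In KMS replicate 5 the level of a gene also varied with the length of its exons. When the 14380 tested genes with a length in GENCODE vM21 were divided into 4 classes of equal number, the median log2 CPM of this library minus the mean of the other KMS libraries was 1.07, 0.17, -0.28 and -0.76 from the shortest to the longest class. In the other 9 libraries these medians lay between -0.48 and 0.27. The median log2 fold change of KMS against KM was 0.49, 0.12, -0.03 and -0.15 in these classes, and 0.20, 0.07, 0.01 and -0.04 without KMS replicate 5. The members followed this in part. Snrpb, Srsf9, Snrpa and U2af1, with exon lengths of 1113 to 1569 bases, were 0.98 to 1.74 higher on the log2 scale in KMS 5 than in the other KMS libraries. The 16 members of the longest class had a median of -0.93, the lowest being Srrm2 with -2.10. Clk1, Snrnp70, Tra2a and Srsf5 also belonged to the shortest class, at 1656 to 1803 bases, but were between -1.67 and -0.84. Hnrnpf, with 2860 bases, was 2.45 higher. With a term for exon length in the normalization, an alternative chosen after these values had been seen, 0 members were called by edgeR, and Snrpb had a log2 fold change of 0.53, Snrpa 0.20 and U2af1 0.05. The same alternative gave Snrnp200 0.51, Hnrnpm 0.39, Prpf8 0.29 and Sf3b1 0.24, and 4 members (Snrpb, Sfpq, Snrnp200 and Hnrnpm) had an unadjusted p under 0.05, where 19.6% of all genes did.

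**Figure D4:**
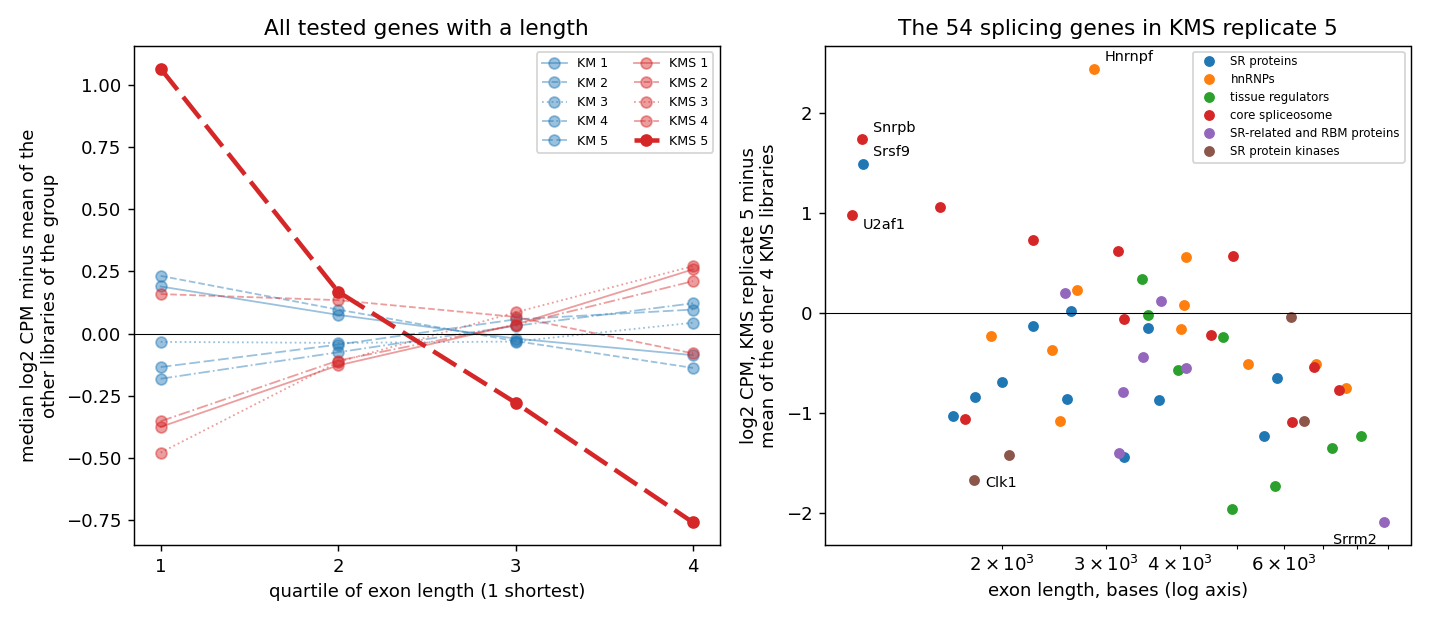
Left, median log2 CPM of each library minus the mean of the other libraries of its group, for all tested genes in 4 classes of exon length. Right, the same difference for KMS replicate 5 in each of the 54 splicing genes against exon length on a log axis. The line of KMS 5 goes from 1.07 to -0.76, and among the members Hnrnpf (2.45) and Snrpb (1.74) are highest and Srrm2 (-2.10) is lowest.

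Without KMS replicate 5 the members were higher in KMS more often, with 38 of 54 positive log2 fold changes and a median of 0.09. Over all genes 8725 of 16000 were positive, with a median of 0.05. By role, 8 of 12 SR proteins, 5 of 11 hnRNPs, 4 of 8 tissue regulators and 11 of 12 core spliceosome genes were positive. So were 6 of 7 SR-related and RBM proteins and 4 of 4 kinases. In that fit 0 members were called by edgeR and 4 had an unadjusted p under 0.05, namely Snrpb, Sfpq and Snrnp200 with higher and Hnrnpf with lower levels in KMS, where 17.025% of all genes did. Without the library labelled KMS 1, 19 of 54 were positive with a median of -0.09, 0 were called by edgeR, and Snrpb and Esrp1 had an unadjusted p under 0.05, where 19.8% of all genes did. The sign of the log2 fold change was kept in all 10 fits that left out a library for 13 members with positive and 10 with negative values, and it changed at least once in the other 31.

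Per base of exon the members covered a wide range of levels, and their order was much alike in the groups. In KM the highest was Hnrnpa2b1 with 279 CPM per kb, an hnRNP that binds UAG motifs, followed by Srsf5 with 175, Snrnp70 with 126 and Srsf2 with 118 CPM per kb. The lowest were Rbfox2 with 4.49, Ptbp2 with 5.50 and Prpf31, a U4/U6 protein, with 7.40 CPM per kb. In KMS Hnrnpa2b1 (231 CPM per kb) and Srsf5 (156 CPM per kb) were again first, and Rbfox2 was again last with 3.86 CPM per kb. Snrpb moved from rank 9 to rank 3 with 152 CPM per kb, a mean raised by KMS 5 (394 CPM, beside 87.2 to 160 CPM in the other KMS libraries). The SD between libraries was large beside the gaps between neighbours in this order. Its median coefficient of variation was 24.9% in KM and 29.0% in KMS, beside 25.8% and 45.3% over all tested genes.

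Reads of some members may be shared with other genes, and their values are less certain. For 21 members another annotated gene had a transcript at least 95% identical over at least 300 bases, as a copy or by overlap, and for 19 of them such a gene was in the table. The copies of Hnrnpa3 held 90.8% as many counts as the gene itself, those of Hnrnpa1 62.6%, of Hnrnpk 27.3%, of Hnrnpf 27.0% and of U2af1 25.0%. When counts of the copies were added, the log2 ratio of the group means changed from -0.45 to -0.35 for Hnrnpa1, from -0.29 to -0.01 for Hnrnpa3 and from 0.49 to 0.57 for U2af1. Hnrnpm shares 28.6% of its exon bases with March2 on the same strand. Exons of Srsf4 (67.9%), Ptbp1 (26.4%), Srpk2 (15%) and Prpf31 (11.2%) overlap genes on the opposite strand, and whether counting used the strand is not stated in the methods.

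The rest of the splicing pathway was measured through 112 tested genes in 8 lists. None of them was called by edgeR's quasi-likelihood test or by limma-voom. In the edgeR fit 10 had an unadjusted p under 0.05 with a higher and 2 with a lower level in KMS, where 10.8% and 8.62% of all tested genes did. DESeq2 called 2 (Syf2 higher, Celf2 lower), beside 5.24% of all genes, and the likelihood ratio test of edgeR called 1, beside 3.83% of all genes. Positive values were found in 82 of 112, with a median of 0.17, beside 54% and 0.06 over all tested genes. The other U1, Sm and LSm proteins, the partners of Snrpb and Snrpa, were positive in 14 of 15 with a median of 0.60. They were led by Snrpd2 (1.42) and Lsm4 (1.25), and without KMS replicate 5 they were positive in 12 of 15 with a median of 0.17. Over all genes of the shortest class of exon length the median was 0.49, and 0.20 without KMS replicate 5. The part of exon length in the values of the lists was not tested. The other tri-snRNP and catalytic step factors were positive in 22 of 24 with a median of 0.25, and in 22 of 24 with a median of 0.23 without KMS replicate 5. Among them Syf2, a subunit of the complex around Prpf19, was measured at 59.9, 60.9, 63.5, 57.6 and 50.9 CPM in KM and at 127, 97.4, 68.5, 77.3 and 110 CPM in KMS. Every KMS library was above every KM library, where 4.79% of all tested genes had groups without overlap in either direction. The log2 fold change was 0.71 (SE 0.20, adjusted p = 0.153, edgeR). Prpf19 itself had 0.66.

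The other U2 and branch point factors were positive in 8 of 9 with a median of 0.49, led by Sf3b5 (1.34) and Phf5a (1.07), both small subunits of the SF3b complex that holds Sf3b1. Without KMS replicate 5 they were positive in 7 of 9 with a median of 0.33. The minor spliceosome genes were positive in 8 of 9 with a median of 0.32, with the lowest p in Zmat5 (1.03) and Snrnp25 (1.08). Leaving out KMS replicate 5 gave 9 of 9 and a median of 0.27. The exon junction and nonsense-mediated decay factors were positive in 11 of 14 with a median of 0.19, with Upf3a at 0.54 and Eif4a3 at 0.43. Leaving out KMS replicate 5 gave 12 of 14 and a median of 0.23. The other hnRNPs and regulators were positive in 13 of 34 with a median of -0.09, but without KMS replicate 5 in 20 of 34 with a median of 0.09. They held Celf2, at 11.5 to 66.0 CPM in KM and 3.49 to 14.8 CPM in KMS with a log2 fold change of -1.67 (adjusted p = 0.158, edgeR), and Pcbp2, with 0.70. The other SR protein kinases were positive in 4 of 4, with Clk3 at 0.39 and Clk2 at 0.14, and in 4 of 5 tested without KMS replicate 5. Of the 3 readers of H3K36me3 tied to splicing, Psip1 had a log2 fold change of -0.64 (adjusted p = 0.221, edgeR), Morf4l1 of 0.20 and Zmynd11 of 0.03.

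**Figure D5:**
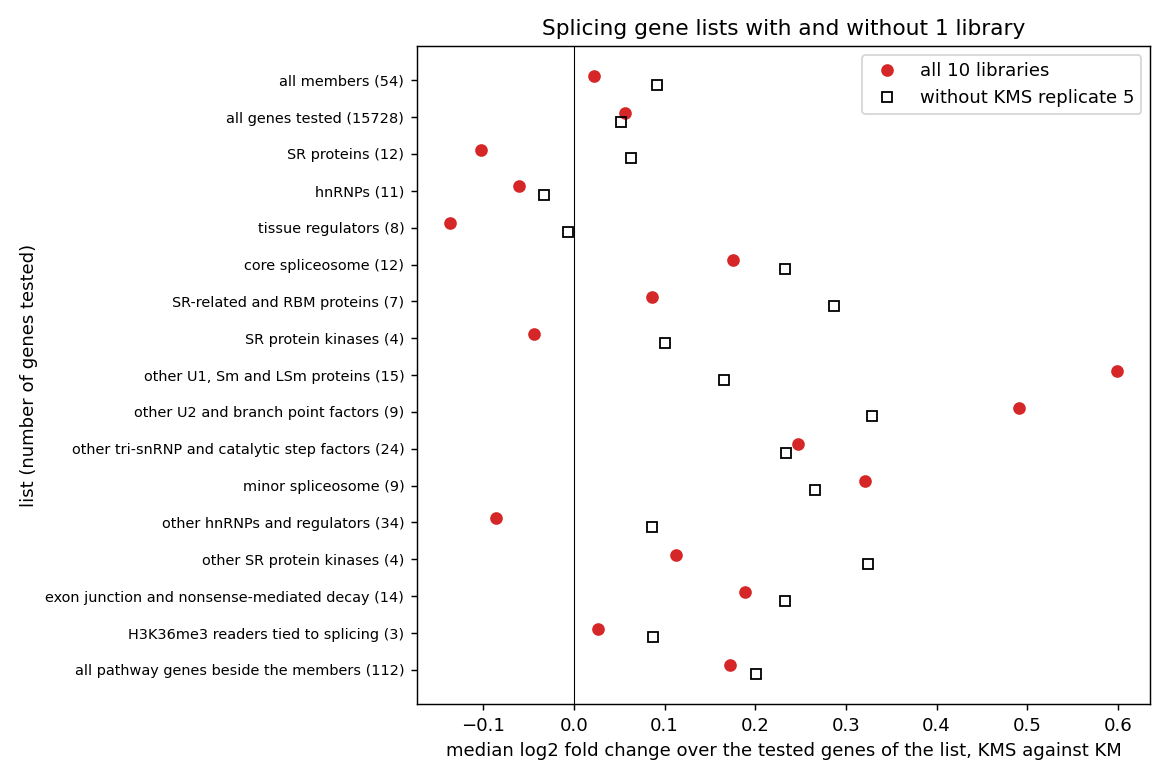
Median log2 fold change of KMS against KM over the tested genes of each splicing list (vertical axis, number of genes in brackets), in the fit of all 10 libraries (filled circles) and without KMS replicate 5 (open squares). The median of the other U1, Sm and LSm proteins moves from 0.60 to 0.17 and that of the 54 members from 0.02 to 0.09.

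Markers of fibroblasts, immune cells and dividing cells had lower levels in KMS, and those of endothelium overlapped between the groups. The log2 fold change was negative for 6 of 6 fibroblast, 6 of 6 immune cell and 6 of 6 dividing cell markers, with medians of -1.43, -1.48 and -1.77. With edgeR 0 were called and 4, 6 and 6 had an unadjusted p under 0.05, while DESeq2 called 4, 3 and 5. Their summed level was 244 to 545 CPM in KM and 127 to 189 CPM in KMS for fibroblasts, 112 to 189 and 33.5 to 86.2 CPM for immune cells, and 45.3 to 129 and 12.7 to 47.0 CPM for dividing cells. The 4 endothelial markers had a median of -0.20, with 0 at an unadjusted p under 0.05, and a summed level of 180 to 804 CPM in KM and 78.1 to 901 CPM in KMS. No marker was at 0 in any library. Tubule markers were present throughout, with a summed level of 1339 to 8431 CPM for the proximal tubule and 1427 to 9585 CPM for the distal nephron and collecting duct over all 10 libraries, in which Cdh16, the gene whose promoter drives the recombinase, averaged 841 CPM in KM and 1060 CPM in KMS. The part of these cell types in the levels of the splicing genes was not tested.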

How the data were processed

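RNA of 5 KM and 5 KMS mice was read as paired 150-base reads from directional poly(A) libraries. Per the methods, reads were trimmed, mapped with HISAT2 to GRCm38 and assigned to genes with HTSeq. The authors deposited raw counts for each gene in each library. Ages are those of the reporting form. The table also holds log2 fold changes, p-values and FDRs of the authors' own comparison, which were not used. RUVSeq is named in the methods, and the submitters' processing notes name cutadapt 1.9.1, Trimmomatic 0.35, FastQC, StringTie and MACS2 2.1.1 without a role.

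Counts were filtered with filterByExpr, scaled by TMM factors and tested with the quasi-likelihood test of edgeR 4.0.16 in R 4.3.3, without covariates, with Benjamini-Hochberg adjustment over 15728 genes. Log2 CPM used a prior count of 3. Alternatives were RLE and upper-quartile factors, other filters, no fold threshold, DESeq2 1.42.0, limma-voom (limma 3.58.1), the likelihood ratio test, RUVg with 1 factor, a replicate block and each library left out. A Y-linked covariate and an offset for exon length were added after seeing the data. The default setting of DESeq2 for its independent filtering was also chosen after its count of calls had been seen. No member was called at either setting tried. Scripts were tested on simulated data.

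The members and the gene lists were chosen with earlier results of these data known. Named genes were members with the lowest unadjusted p under 0.05, the extremes of each role, 10 set beforehand and up to 2 of lowest p in each pathway list. The comparisons by exon length, the searches for similar genes (BLAST+ 2.17.0), annotated stop-codon exons and promoter motifs, and the ranks of libraries were made after values had been seen. Exon length is the union of a gene's exons in GENCODE vM21. Plots were drawn with matplotlib 3.10.9.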

Additional observations from a re-analysis of the deposited data

Results flagged for a closer look

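In 11 of the 108 groups of 5 libraries formed by the 54 splicing genes, the highest or lowest library was separated from the next by more than Dixon's 95% critical share of the group's range. Chance separates about 1 in 20 groups in this way, and the members are not independent of each other. KMS replicate 5 was the separated library in 6 of them. It was the highest KMS library for Hnrnpf (101 CPM, next 21.1) and Snrpb (394 CPM, next 160). It was the lowest for Clk1 (53.0 CPM, next 167), Srsf5 (140 CPM, next 267), Hnrnph1 (92.3 CPM, next 174) and Mbnl1 (36.8 CPM, next 111). KMS replicate 1 was the highest for Sfpq (686 CPM, next 288) and Mbnl2 (65.3 CPM, next 48.1), and the lowest for Hnrnpc (134 CPM, next 157). KMS replicate 2 was the highest for Hnrnpa1 (88.1 CPM, next 63.9). In KM only Hnrnpk in replicate 3 was separated (130 CPM, next 170).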

How the results depend on the processing

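No member was called under any alternative, so the statements above about calls held in all of them, while the number of calls over all genes did not. It was 25 with upper-quartile factors, 8 with the stricter filter of 5 CPM in 5 libraries, 33 with limma-voom, 1072 with DESeq2, 602 with the likelihood ratio test, 569 with RUVg, 7 with the Y-linked covariate, 27 with the exon length offset and 9 to 42 with a library left out. Libraries with the same replicate number were not alike across the groups (correlations of deviations -0.34, 0.14, -0.28, 0.12 and -0.44 for numbers 1 to 5). Other differences between libraries enter these correlations, so they cannot tell whether mice were paired. With the replicate block 2 genes and 0 members were called, with 0 members at an unadjusted p under 0.05.

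The number of members with an unadjusted p under 0.05, 1 as reported, was 2 with upper-quartile factors, the stricter filter, limma-voom and the Y-linked covariate, 3 with RUVg, 4 with the exon length offset and 1 to 4 with a library left out (2 to 4 for a KMS library, and 1 for each KM library). The number of members without overlap of the groups was 0 to 2 with a library left out, Hnrnpm without KM replicate 5 (6.20% of all genes) and Hnrnpf and Snrnp200 without KMS replicate 5 (6.65% of all genes). Upper-quartile factors moved the median log2 fold change of all genes from 0.06 to -0.09 and that of the members from 0.02 to -0.13.

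Values near 0 changed sign, and the cause was not tested. With upper-quartile factors the log2 fold change was -0.035 for Clk1, -0.067 for Hnrnpl, -0.11 for Sf3b1 and -0.12 for Prpf8. Sf3b1 and Prpf8 were at -0.040 and -0.043 with the stricter filter, -0.034 and -0.035 with limma-voom, -0.011 and -0.033 with the replicate block, and -0.12 and -0.26 with the Y-linked covariate. The block gave 0.024 for Snrnp70, the covariate -0.083 for Clk1, and RUVg -0.064 for Srsf9, 0.16 for Snrnp70 and 0.13 for Clk4. The exon length offset gave -0.23 for Srsf9, 0.040 for Rbm10, -0.016 for Clk1, 0.11 for Srpk2 and 0.034 for Esrp2. With a library left out the range was -0.12 to 0.35 for Clk1, -0.30 to 0.13 for Clk4, -0.15 to 0.058 for Esrp2, -0.0087 to 0.21 for Hnrnpl, -0.13 to 0.18 for Prpf8, -0.21 to 0.068 for Rbm10, -0.17 to 0.24 for Sf3b1, -0.25 to 0.25 for Snrnp70, -0.29 to 0.071 for Srpk2 and -0.11 to 0.46 for Srsf9. The signs of Snrpb, Sfpq, Esrp1, Ptbp1, Hnrnpm, Hnrnpa1, Srsf1 and Srsf10 held in every fit.

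With the spread between 5 mice per group, changes of less than about 1.5-fold could not be detected for most members.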

Other observations

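The promoters of the members, 250 bases before to 50 after each start in RefSeq (GRCm38.p6), were searched on both strands for 4 motifs, none of which contains another. A sequence was found for 48 of the 54 members. The E-box CACGTG, bound by Myc, was present in 7 of the 48 (14.6%), namely Hnrnpa3, Hnrnpd, Hnrnpf, Hnrnpm, Ptbp1, Mbnl1 and Snrpa, beside 10.8% of the 12493 genes of the table with a promoter and 8.09% of all 27025 genes. The ETS motif CCGGAAG was present in 10 members, 20.8% (16.5% of genes of the table). The palindromic NRF1 motif was present in only 3, 6.25% (1.95%), and the palindrome with a central CGCG in only 2, 4.17% (0.913%). These are counts of letters and no measure of binding.

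The mean log2 CPM of 4 Y-linked genes was 4.08 to 6.74 in KM replicates 1, 2, 3 and 5 and 2.34 and 4.96 in KMS replicates 5 and 4. It was below -1 in KM replicate 4 and KMS replicates 1, 2 and 3.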
